A study of Rattus norvegicus with 24 samples.

Results

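The transcripts of 10 genes of the circadian clock, Per1, Per2, Per3, Cry1, Cry2, Nr1d1, Nr1d2, Dbp, Tef and Bhlhe40, were followed in INS-1 cells treated with GLP-1 or BMS-21. The genes were taken by symbol from the gene-symbol column of the deposited tables, where each symbol stood for 1 identifier, and make up 10 of the 26404 genes listed. INS-1, established from a rat insulin-producing tumour, stands in for beta cells in culture. All cells spent 90 min in medium with 3 mM glucose and were then given fresh medium with 11 mM glucose, to which the agent was added. The GLP-1 groups received glucagon-like peptide 1 at 100 nM, an incretin that acts on beta cells through a receptor coupled to cyclic AMP. The BMS-21 groups received 1 µM of a compound known here only by its code name, and the Control groups received the DMSO vehicle. Each agent was sampled at 1 h and at 6 h, with 4 libraries in each of the 6 groups. The labels do not say whether the 4 replicates came from separate cultures, so the p-values measure the spread between these libraries, which may be technical. They name no step that synchronises the cells' clocks.

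The clock is a feedback loop of transcription factors. BMAL1 (the product of Arntl) with CLOCK or NPAS2 binds E-boxes and drives the Per, Cry, Nr1d and Dbp genes. The PER and CRY proteins then inhibit that complex, and the REV-ERB receptors encoded by Nr1d1 and Nr1d2 repress Arntl. DBP and TEF activate genes through D-boxes, which NFIL3 represses, and BHLHE40 and BHLHE41 bind E-boxes as repressors. Per1 is also a classic target of cyclic AMP signalling through CREB, and clock genes in islet beta cells are known to bear on insulin secretion.

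The libraries held 10667350 to 13148970 reads. Levels are given as reads per 1000000 reads (RPM), scaled over all 24 libraries by TMM, a method that sets libraries to a common scale. A count of 3 reads, taken as the detection floor, was worth 0.228 to 0.281 RPM, and the lowest value of any of the 10 genes in a library was 7.32 RPM, for Per3. They are not corrected for gene length and are compared between groups, not between genes. The 10 beta-cell markers checked were all present and summed to 15369.6 to 19493.6 RPM. The other islet hormone genes summed to 7.55 to 15.7 RPM, exocrine and duct markers to at most 0.159 RPM and markers of stroma, endothelium and leukocytes to at most 1.03 RPM. Libraries of replicates 1 and 2 lay apart from those of replicates 3 and 4 on the first principal component after group means were removed, in every group, and some values within these pairs are given beside the results.

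RefSeq promoter windows of the rat build GRCr8 (250 bases before to 50 after a transcript start) were found for 9 of the 10 genes, in 10 windows. Both strands were searched for the E-box CACGTG, the D-box TTATGTAA or TTACGTAA, the cyclic AMP response element (CRE) TGACGTCA, its half-site TGACG, which lies within the full element, and the ROR/REV-ERB core TAGGTCA or TGGGTCA. An E-box was found in 3 windows (Nr1d1, Tef and Bhlhe40) and a D-box in 1 (Per2), against 6.42% and 1.01% of 33469 rat windows of the same length. The half-site was found in 3 windows (Per2, Per3 and Nr1d2, against 21.2% of all windows), the full CRE in 0 (1.83% of all) and the ROR/REV-ERB core in 0 (6.6% of all). The Per1 and Cry2 windows held none of these letters, and the Per1 window lies inside the gene as RefSeq annotates it. The 250 upstream bases of the 4 windows with an E-box or a D-box are shown. They belong to Nr1d1, Tef and Bhlhe40, lowered by both agents at 6 h, and to Per2, raised at 6 h. The windows of Per3, Nr1d2 and Dbp, also lowered at 6 h, held neither motif, nor did the other Nr1d1 window. The capitals mark the motif, 192 bases before the start in Per2, 191 in Nr1d1 (at the second of its listed starts), 198 in Tef and 220 in Bhlhe40. A match is a description of these letters, not evidence of binding. The windows lie at chr9:99496994-99497243 (minus strand) for Per2, chr10:84229455-84229704 (minus strand) for Nr1d1, chr7:115206577-115206826 (plus strand) for Tef and chr4:143174200-143174449 (plus strand) for Bhlhe40.
Per2: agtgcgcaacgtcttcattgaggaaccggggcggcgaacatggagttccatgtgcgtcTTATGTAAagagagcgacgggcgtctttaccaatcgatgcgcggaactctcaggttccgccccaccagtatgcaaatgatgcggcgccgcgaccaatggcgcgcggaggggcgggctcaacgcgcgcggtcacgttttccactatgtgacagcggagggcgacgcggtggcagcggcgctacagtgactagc
Nr1d1: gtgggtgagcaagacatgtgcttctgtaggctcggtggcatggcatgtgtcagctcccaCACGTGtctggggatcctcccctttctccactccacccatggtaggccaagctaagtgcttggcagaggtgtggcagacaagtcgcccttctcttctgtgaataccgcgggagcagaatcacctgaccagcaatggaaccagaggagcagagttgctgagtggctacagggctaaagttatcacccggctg
Tef: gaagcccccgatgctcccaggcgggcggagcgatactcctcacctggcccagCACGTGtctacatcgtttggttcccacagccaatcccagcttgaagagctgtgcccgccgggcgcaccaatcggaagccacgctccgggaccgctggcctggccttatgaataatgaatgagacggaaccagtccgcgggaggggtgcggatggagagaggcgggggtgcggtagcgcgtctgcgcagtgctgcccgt
Bhlhe40: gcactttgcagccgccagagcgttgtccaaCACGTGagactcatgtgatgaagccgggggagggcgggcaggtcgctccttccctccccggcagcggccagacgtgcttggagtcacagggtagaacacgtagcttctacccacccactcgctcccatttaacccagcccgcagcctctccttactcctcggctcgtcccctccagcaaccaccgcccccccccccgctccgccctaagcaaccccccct

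After 1 h of GLP-1, 2 clock repressors were raised more than 3-fold and 2 others were lowered. Per1 and Cry2, which encode inhibitors of BMAL1, were higher, and Nr1d1 (REV-ERBα) and Bhlhe40 (DEC1) were lower, by limma on log2 of the normalised count plus 1 with Benjamini-Hochberg adjusted p under 0.05 over all genes tested. The same 4 genes passed for BMS-21 at 1 h. So 2 of 10 genes rose and 2 fell with each agent, where 4.17% of all genes tested rose and 2.41% fell with GLP-1, and 3.54% rose and 2.37% fell with BMS-21. Both agents were compared with the same Control libraries. In bulk RNA, fewer cells expressing a gene and less RNA per cell cannot be told apart. The median log2 change of the 10 genes was -0.02 with GLP-1 and -0.03 with BMS-21, against 0.00 over all genes tested.

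Per1 stood at 79.3, 81.3, 81.9 and 77.0 RPM in Control at 1 h (replicates 1 to 4), at 298.6, 301.3, 268.4 and 284.5 RPM with GLP-1 and at 307.3, 281.9, 256.2 and 277.2 RPM with BMS-21. Every treated library lay above every Control library, and those of the 2 agents overlapped. The log2 change was 1.85 ± 0.04 (SE, n = 4 per group, limma adjusted p = 4.28e-22) with GLP-1, a 3.61-fold rise, and 1.81 ± 0.05 (limma adjusted p = 1.04e-18) with BMS-21. Cry2, the second cryptochrome, stood at 97.6, 105.9, 98.9 and 95.7 RPM in Control, at 377.5, 375.1, 281.9 and 341.9 RPM with GLP-1 and at 396.9, 364.6, 263.3 and 336.8 RPM with BMS-21. Replicate 3 was the lowest of the treated libraries with either agent and still lay above every Control library. Its log2 change was 1.78 ± 0.09 (limma adjusted p = 1.94e-06), or 3.44-fold, with GLP-1 and 1.76 ± 0.13 (limma adjusted p = 0.000188) with BMS-21. Within replicates 1 and 2 alone the Cry2 change was 1.89 and 1.91 with the 2 agents, and within replicates 3 and 4 it was 1.68 and 1.61. In RefSeq's annotation Cry2 overlaps a long noncoding RNA, and the library kit does not mark strand, so reads of the 2 cannot be told apart.

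Nr1d1 stood at 27.2, 26.7, 34.8 and 31.4 RPM in Control at 1 h, at 13.9, 16.4, 18.7 and 16.9 RPM with GLP-1 and at 13.7, 15.5, 20.4 and 17.4 RPM with BMS-21. No treated library reached the lowest Control library. The log2 change was -0.86 ± 0.09 (limma adjusted p = 7.23e-07) with GLP-1, or 1.81-fold lower, and -0.84 ± 0.11 (limma adjusted p = 0.000214) with BMS-21. Nr1d1 overlaps Thra, a thyroid hormone receptor gene, and unstranded reads of the shared stretch cannot be told apart. Thra changed by -0.03 ± 0.06 with GLP-1 at 1 h and by -0.05 ± 0.06 with BMS-21 (limma adjusted p = 0.9 and 0.835). Bhlhe40 stood at 392.0, 382.0, 349.5 and 348.7 RPM in Control, at 221.4, 220.4, 205.4 and 199.8 RPM with GLP-1 and at 218.4, 217.8, 222.2 and 196.5 RPM with BMS-21. No treated library overlapped with Control, the 2 agents' libraries overlapped with each other, and the log2 changes were -0.79 ± 0.04 (limma adjusted p = 4.21e-13) with GLP-1, or 1.73-fold lower, and -0.78 ± 0.04 (limma adjusted p = 1.1e-11) with BMS-21.

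**Figure D1:**
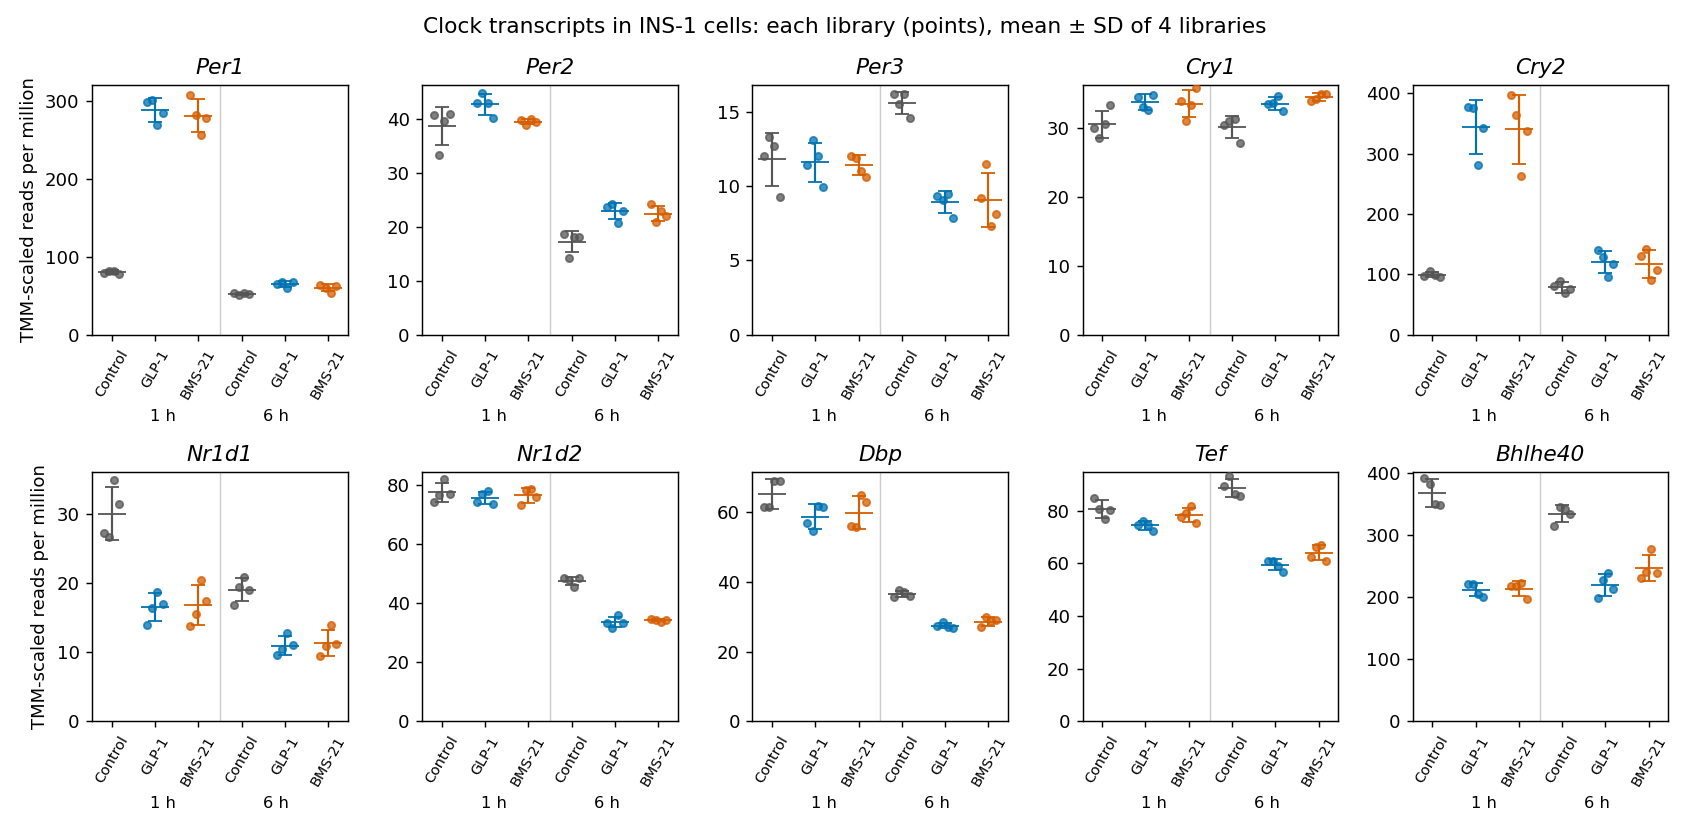
TMM-scaled RPM (vertical axis, starting at 0) of the 10 clock genes in Control (grey), GLP-1 (blue) and BMS-21 (orange) at 1 h and 6 h. Points are libraries in replicate order, the wide bar is the mean and the whiskers are the SD of 4 libraries. Per1 and Cry2 stand far above Control at 1 h and less far above it at 6 h, while Nr1d1 and Bhlhe40 lie below Control of the same time at both times.

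The other 6 genes did not pass at 1 h with either agent. Per2 stood at 33.4 to 41.0 RPM in Control, 40.2 to 44.9 RPM with GLP-1 and 38.9 to 40.0 RPM with BMS-21, with log2 differences of 0.15 ± 0.06 and 0.04 ± 0.06 (limma adjusted p = 0.216 and 0.875). Without Control replicate 2, the lowest Control library for Per2, these values were 0.08 and -0.03. Within replicates 1 and 2 alone the GLP-1 value was 0.26 and passed (limma adjusted p = 0.0237), and within replicates 3 and 4 it was 0.04 (limma adjusted p = 0.901). Cry1, the other cryptochrome, had differences of 0.15 ± 0.06 and 0.13 ± 0.06, with 95% intervals of 0.02 to 0.27 and 0.01 to 0.26. Per3 and Nr1d2 (REV-ERBβ) lay closest to no difference, at -0.01 ± 0.11 and -0.03 ± 0.05 with GLP-1 and at -0.04 ± 0.10 and -0.01 ± 0.05 with BMS-21. Libraries with the same replicate number deviated together, and a fit with the replicate number as a block was therefore run as well. With it, the PAR bZIP factor Dbp passed for both agents (-0.15 ± 0.04, limma adjusted p = 0.0087, and -0.12 ± 0.04, limma adjusted p = 0.0375), and its relative Tef passed for GLP-1 (-0.11 ± 0.04, limma adjusted p = 0.0436). Without the block their adjusted p values were 0.135 and 0.334 for Dbp and 0.173 for Tef. Tef with BMS-21 changed by -0.04 ± 0.05 (limma adjusted p = 0.808) and did not pass with the block either (limma adjusted p = 0.628). Scaled by library totals, without the block, Dbp (-0.18, limma adjusted p = 0.0477) and Tef (-0.14, limma adjusted p = 0.0476) also passed for GLP-1. The block brought the share of all genes past the threshold to 11.9% for GLP-1 and 12.2% for BMS-21.

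By 6 h all 10 clock genes passed the threshold against Control of the same time with each agent, though the Cry1 and Cry2 calls depended on the processing. The period genes Per1 and Per2 and both cryptochromes were higher, and Per3, both REV-ERB genes, Dbp, Tef and Bhlhe40 were lower. That is 4 higher and 6 lower with GLP-1, where 16.2% of all genes tested were higher and 15.6% lower, and 4 higher and 6 lower with BMS-21, where 16.8% were higher and 16.8% lower. The median log2 change of the 10 genes was -0.46 with GLP-1 and -0.40 with BMS-21, against 0.00 over all genes. Control libraries are again shared by both comparisons.

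Among the repressors, Per1 stood at 50.9 to 53.4 RPM in Control at 6 h, at 59.6 to 67.1 RPM with GLP-1 and at 53.4 to 63.7 RPM with BMS-21. The rise was 0.31 ± 0.05 on the log2 scale with GLP-1 (limma adjusted p = 3.58e-05) and 0.20 ± 0.06 with BMS-21 (limma adjusted p = 0.00715). Scaled by library totals the BMS-21 value was 0.14 and did not pass (limma adjusted p = 0.0553). Within replicates 1 and 2 it was 0.25 and passed (limma adjusted p = 0.000828), and within replicates 3 and 4 it was 0.15 and did not (limma adjusted p = 0.105). Per2, whose product is the partner of CRY proteins in the repressor complex, stood at 18.7, 14.3, 18.1 and 18.1 RPM in Control, at 23.7, 24.3, 20.8 and 22.9 RPM with GLP-1 and at 24.3, 20.9, 22.9 and 22.1 RPM with BMS-21. All treated libraries lay above all Control libraries, with log2 changes of 0.41 ± 0.08 (limma adjusted p = 0.000693) and 0.39 ± 0.08 (limma adjusted p = 0.00106). Without the low Control replicate 2 they were 0.33 and 0.30 and still passed. The GLP-1 value was 0.55 within replicates 1 and 2 and 0.27 within replicates 3 and 4, and passed in both. Per2 overlaps a long noncoding RNA in RefSeq's annotation, and the same limit on strand holds.

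Per3 went the other way from Per1 and Per2. It stood at 16.2, 15.5, 16.2 and 14.6 RPM in Control at 6 h, at 9.36, 9.04, 9.43 and 7.84 RPM with GLP-1 and at 9.21, 11.5, 7.32 and 8.13 RPM with BMS-21. No treated library reached a Control library, and the log2 change was -0.80 ± 0.09 (limma adjusted p = 4.45e-07) with GLP-1 and -0.80 ± 0.11 (limma adjusted p = 9.88e-06) with BMS-21, 1.74-fold lower with each. Within replicates 1 and 2 the BMS-21 value was -0.62 and within replicates 3 and 4 it was -0.99.

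Cry2 was still raised at 6 h, at 68.0 to 89.1 RPM in Control, 96.0 to 139.4 RPM with GLP-1 and 89.7 to 141.0 RPM with BMS-21, and its groups did not overlap with Control. The log2 change was 0.62 ± 0.13 (limma adjusted p = 0.0121) with GLP-1 and 0.57 ± 0.16 (limma adjusted p = 0.039) with BMS-21. With the replicate block the values were 0.62 ± 0.04 (limma adjusted p = 2.91e-25) and 0.57 ± 0.04 (limma adjusted p = 4.34e-14). Cry1 changed by 0.16 ± 0.06 (limma adjusted p = 0.0441) with GLP-1 and 0.20 ± 0.06 (limma adjusted p = 0.0126) with BMS-21. With the block Cry1 also passed (limma adjusted p = 0.0152 and 0.00664). Without the block, the Cry1 and Cry2 calls were those nearest the threshold, and the alternatives that follow are without it. Cry1 with GLP-1 passed in only 2 of the 8 fits that each left out 1 library (limma adjusted p from 0.0441 to 0.15), and Cry2 with BMS-21 in 2 of 8 (0.00445 to 0.0917). Under scaling by library totals, Cry1 with either agent and Cry2 with BMS-21 did not pass (limma adjusted p = 0.174, 0.0729 and 0.06). With no filter on low counts, Cry1 with GLP-1 (limma adjusted p = 0.0696) and Cry2 with BMS-21 (limma adjusted p = 0.0544) did not pass. Cry1 with GLP-1 also did not pass by DESeq2 on the recovered reads (DESeq2 adjusted p = 0.127).

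The REV-ERB genes were both lower at 6 h. Nr1d1 stood at 16.8, 19.4, 20.9 and 18.9 RPM in Control, at 9.52, 10.4, 12.8 and 11.0 RPM with GLP-1 and at 9.46, 10.9, 13.9 and 11.1 RPM with BMS-21, with no overlap between treated and Control libraries. Its log2 change was -0.79 ± 0.09 (limma adjusted p = 1.09e-06) and -0.75 ± 0.10 (limma adjusted p = 5e-06). The overlapping gene Thra was also lower at 6 h, by -0.47 ± 0.08 with GLP-1 and -0.48 ± 0.08 with BMS-21 (limma adjusted p = 7.95e-05 and 7.45e-05), and its part in the Nr1d1 reads was not tested. Nr1d2 stood at 45.4 to 48.5 RPM in Control, 31.6 to 35.8 RPM with GLP-1 and 33.6 to 34.7 RPM with BMS-21. Its log2 change was -0.50 ± 0.05 and -0.47 ± 0.05, where at 1 h it had been within 0.03 of no difference with either agent.

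Of the D-box activators, Dbp stood at 35.8 to 37.6 RPM in Control at 6 h, 26.7 to 28.4 RPM with GLP-1 and 27.0 to 29.9 RPM with BMS-21. Its log2 changes were -0.42 ± 0.06 (limma adjusted p = 4.71e-06) and -0.36 ± 0.06 (limma adjusted p = 4.22e-05). Tef stood at 85.4 to 93.0 RPM in Control, 56.6 to 61.0 RPM with GLP-1 and 61.0 to 66.8 RPM with BMS-21, with changes of -0.57 ± 0.04 (limma adjusted p = 3.03e-09) and -0.47 ± 0.05 (limma adjusted p = 7.13e-08). Neither gene's treated libraries overlapped with Control. The E-box repressor Bhlhe40 stood at 314.7, 345.3, 341.5 and 333.7 RPM in Control, at 199.2, 228.0, 238.5 and 212.6 RPM with GLP-1 and at 231.4, 239.8, 276.6 and 239.1 RPM with BMS-21. It was lower by 1.52-fold with GLP-1 (log2 change -0.60 ± 0.05, limma adjusted p = 7.71e-09) and by 1.35-fold with BMS-21 (-0.44 ± 0.05, limma adjusted p = 4.44e-07).

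**Figure D2:**
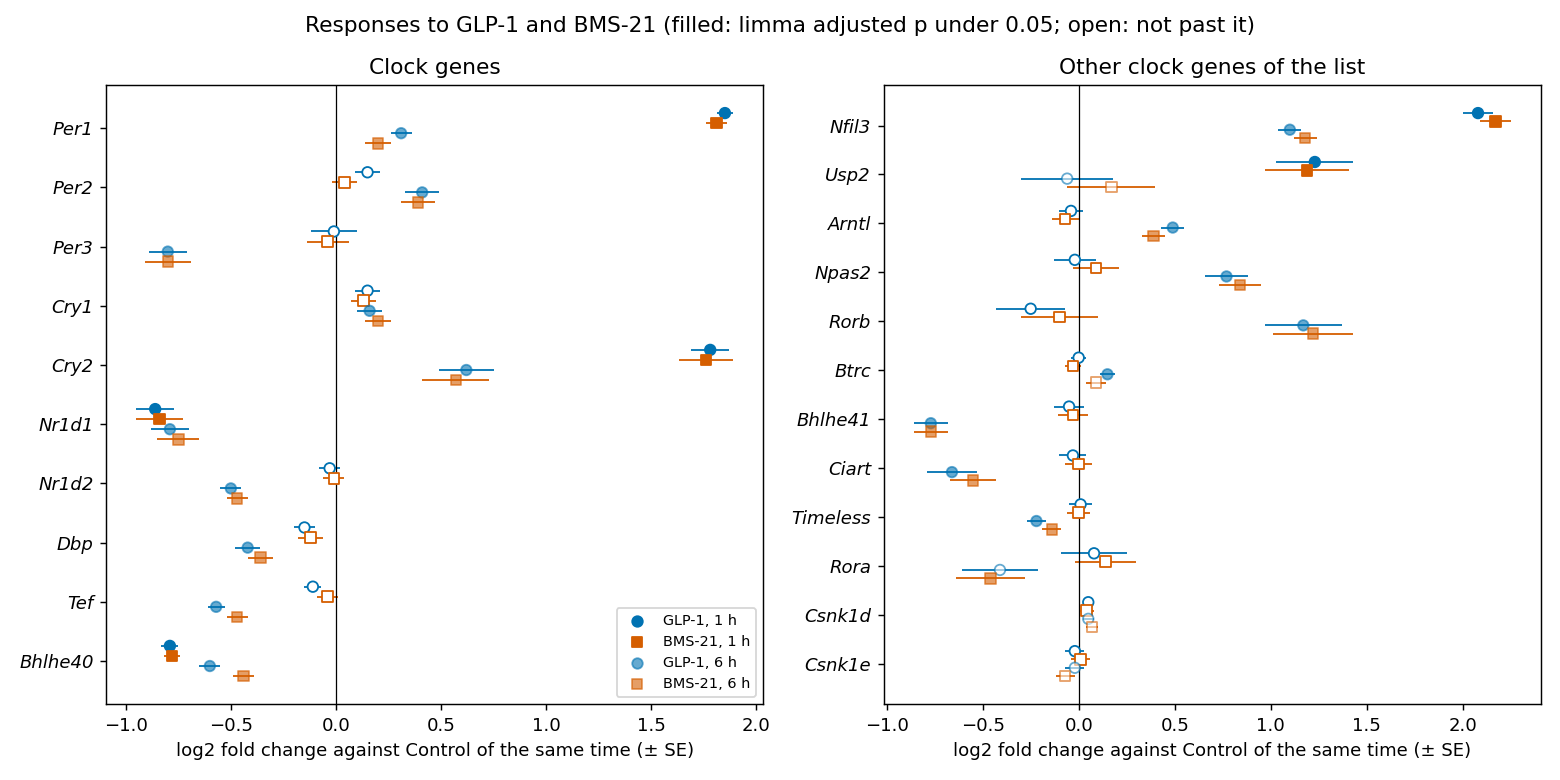
Log2 fold change against Control of the same time (horizontal axis, ± SE) of the 10 clock genes (left) and of 12 other clock genes of the list (right), for GLP-1 (blue circles) and BMS-21 (orange squares) at 1 h (dark) and 6 h (light). Filled symbols have a limma adjusted p under 0.05. At 1 h only Per1, Cry2, Nr1d1, Bhlhe40, Nfil3 and Usp2 are filled, and at 6 h all 10 genes on the left are.

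A second list of 16 other clock genes was read beside these. Of these 13 were matched by symbol and 12 had enough reads to be tested (Arntl2 was below the filter, and Clock, Hlf and Fbxl21 were not analysed here). At 1 h, 2 of 12 rose and 0 fell with each agent, the D-box repressor Nfil3 (2.08 ± 0.08 with GLP-1 and 2.17 ± 0.08 with BMS-21) and Usp2, a deubiquitinase that acts on clock proteins (1.23 ± 0.20 and 1.19 ± 0.22). Of all genes tested, 4.17% rose and 2.41% fell with GLP-1 at 1 h, and 3.54% and 2.37% with BMS-21. Usp2 was counted at only 14 to 55 reads per library at 1 h. At 6 h, 5 of 12 rose and 3 fell with GLP-1, where 16.2% of all genes rose and 15.6% fell, and 4 rose and 4 fell with BMS-21, where 16.8% went each way. The activators Arntl (0.49 ± 0.06 and 0.39 ± 0.06) and Npas2 (0.77 ± 0.11 and 0.84 ± 0.11) rose with both agents, as did Nfil3 (1.10 ± 0.06 and 1.18 ± 0.06) and the orphan receptor gene Rorb (1.17 ± 0.20 and 1.22 ± 0.21), which had 14 to 62 reads per library. The E-box repressor gene Bhlhe41 (-0.77 ± 0.09 with each), Ciart, a repressor of BMAL1 (-0.66 ± 0.13 and -0.55 ± 0.12), and Timeless (-0.22 ± 0.05 and -0.14 ± 0.05) fell with both. Btrc, a ubiquitin ligase subunit that targets PER proteins, passed with GLP-1 (0.15 ± 0.04) and Rora with BMS-21 (-0.46 ± 0.18, limma adjusted p = 0.0473). The Rora call passed in 1 of 8 fits that left out a library, and the Timeless call with BMS-21 in 6 of 8.

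The level of Arntl itself was 34.4 to 36.3 RPM in Control at 1 h and 22.7 to 26.1 RPM in Control at 6 h, and it stood at 33.6 to 35.8 RPM with GLP-1 and 30.2 to 33.3 RPM with BMS-21 at 6 h. GLP-1 at 6 h overlapped with Control at 1 h, and BMS-21 at 6 h lay between the 2 Control groups. Nfil3 stood at 49.8 to 67.2 RPM in Control at 1 h, 225.8 to 249.8 RPM with GLP-1 and 245.4 to 262.1 RPM with BMS-21. At 6 h it was at 28.8 to 34.9 RPM, 64.8 to 71.4 RPM and 71.4 to 74.3 RPM.

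Set against each other at the doses used (100 nM GLP-1 and 1 µM BMS-21), the 2 agents differed in 0 of 10 clock genes by limma without the block at 1 h and at 6 h, and in Bhlhe40 at 6 h with the replicate block. At 1 h, limma called 0 of 10 clock genes, with 1 (Per2) at an unadjusted p under 0.05, while edgeR and DESeq2 on the recovered reads also called 0. Over all 12672 genes limma called 0, or 0%, with 432 at an unadjusted p under 0.05. The 95% intervals of the BMS-21 minus GLP-1 difference ran from -0.14 to 0.06 for Per1, from -0.33 to 0.29 for Cry2, from -0.20 to 0.24 for Nr1d1 and from -0.07 to 0.10 for Bhlhe40 on the log2 scale. They were -0.21 to -0.01 for Per2, whose libraries did not overlap between the agents, -0.21 to 0.16 for Per3 and -0.13 to 0.11 for Cry1. For Nr1d2, Dbp and Tef they were -0.07 to 0.10, -0.09 to 0.14 and -0.01 to 0.16. For Cry2 the interval with the replicate block was -0.06 to 0.02. With the replicate block limma still called 0 of 10 at 1 h, where 0.671% of all genes passed, and of the second list only Nfil3 passed, 0.10 ± 0.02 higher with BMS-21 (limma adjusted p = 0.0174).

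At 6 h limma called 0 of 10 between the agents, with 2 (Bhlhe40 and Tef) at an unadjusted p under 0.05, where 0.0158% of all genes passed (2 of 12629). edgeR and DESeq2 on the recovered reads called 0 of 10 as well. With the replicate block 1 of 10 passed, where 1.72% of all genes did. That gene was Bhlhe40, 0.17 ± 0.03 higher with BMS-21 than with GLP-1 (limma adjusted p = 0.000251), and without the block the same difference had an adjusted p of 0.717. In replicates 1 to 4 Bhlhe40 stood at 231.4, 239.8, 276.6 and 239.1 RPM with BMS-21 against 199.2, 228.0, 238.5 and 212.6 RPM with GLP-1, higher in 4 of 4 pairs although the groups overlapped. The other intervals at 6 h, without the block, were -0.22 to 0.00 for Per1, -0.17 to 0.12 for Per2, -0.24 to 0.25 for Per3 and -0.07 to 0.15 for Cry1. They were -0.41 to 0.31 for Cry2, -0.18 to 0.27 for Nr1d1, -0.08 to 0.14 for Nr1d2, -0.05 to 0.18 for Dbp and 0.01 to 0.20 for Tef. For Cry2 the interval with the block was -0.12 to 0.03.

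The clock genes also differed between the Control groups of the 2 times. Between Control at 1 h and Control at 6 h, 7 of 10 clock genes fell and 2 rose by edgeR's quasi-likelihood test on the recovered reads, where 27.2% of all genes fell and 26.7% rose. Time in culture, time since the glucose and medium change and time since DMSO was added cannot be told apart in this comparison. The median log2 change of the 10 was -0.49, against 0.00 over all genes. Per2 fell most, from 33.4 to 41.0 RPM to 14.3 to 18.7 RPM (log2 change -1.17 ± 0.08, edgeR adjusted p = 1.01e-11), a 2.25-fold drop. It was followed by Dbp (-0.84 ± 0.05, from 61.4 to 69.0 RPM down to 35.8 to 37.6 RPM), Nr1d2 (-0.71 ± 0.05, from 74.2 to 81.9 RPM down to 45.4 to 48.5 RPM), Nr1d1 (-0.67 ± 0.09) and Per1 (-0.62 ± 0.05). None of these 5 genes' Control libraries overlapped between the times, and the share of all genes of which this holds was not counted. The overlapping gene Thra fell as well, by -0.66 ± 0.07 (edgeR adjusted p = 2.43e-08).

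Cry2 (-0.35 ± 0.06) and Bhlhe40 (-0.15 ± 0.04, edgeR adjusted p = 0.00344) fell less in Control. Per3 rose by 0.40 ± 0.09 (edgeR adjusted p = 0.000893), from 9.24 to 13.3 RPM up to 14.6 to 16.2 RPM, and Tef by 0.13 ± 0.05 (edgeR adjusted p = 0.0176). Cry1 had a difference of -0.03 ± 0.06 (95% interval -0.15 to 0.10), and its groups overlapped. Within replicates 3 and 4 alone the values of Tef (0.12) and Bhlhe40 (-0.06) did not pass. In the second list 8 of 12 genes fell and 2 rose, where 27.2% of all genes fell and 26.7% rose. The largest fall was that of Ciart (-1.20 ± 0.09), and Nfil3 (-0.80 ± 0.09), Rorb (-0.66 ± 0.21), Arntl (-0.53 ± 0.06), the casein kinase gene Csnk1e (-0.53 ± 0.05), Npas2 (-0.39 ± 0.12), Bhlhe41 (-0.27 ± 0.08), and Btrc (-0.12 ± 0.04, past the threshold in 4 of 8 fits that left out a library) also fell. Timeless (0.48 ± 0.05) and the casein kinase gene Csnk1d (0.20 ± 0.03) rose.

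**Figure D3:**
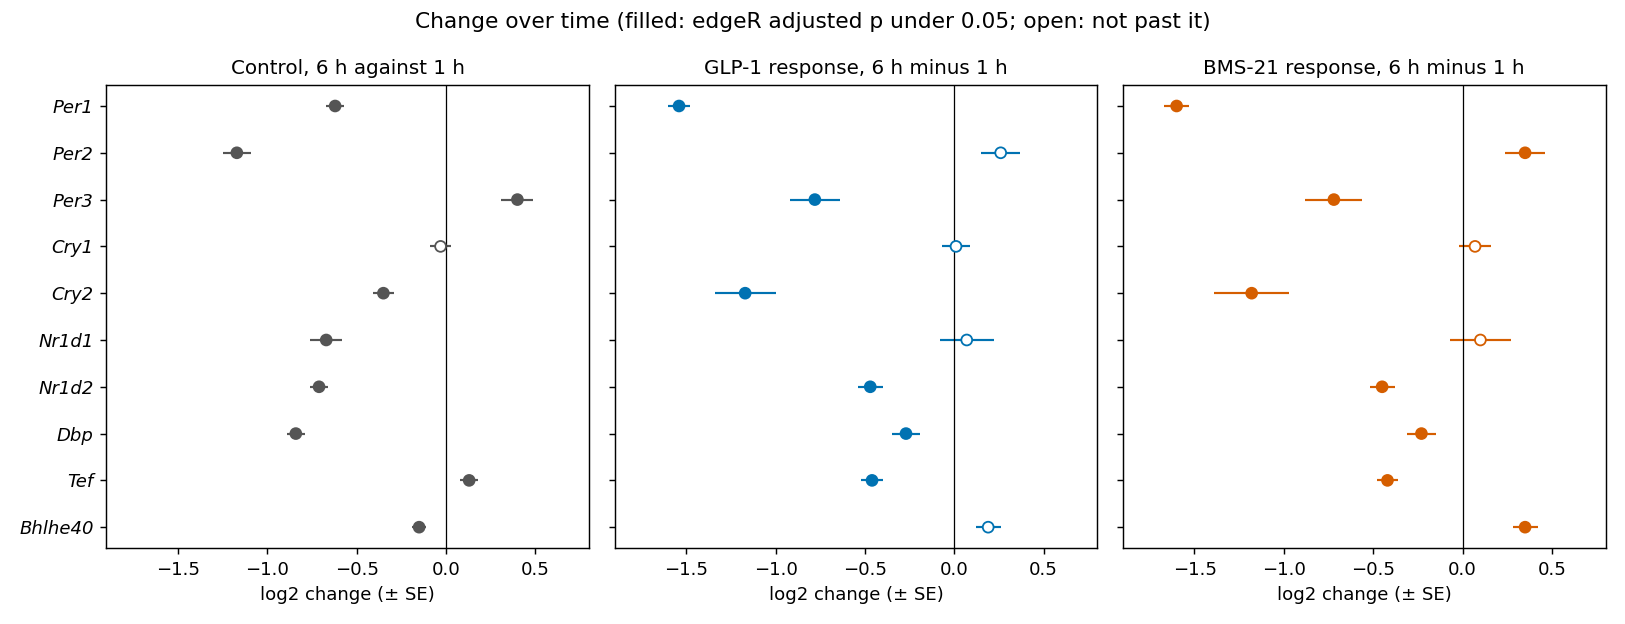
Log2 change (horizontal axis, ± SE) of the 10 clock genes in Control at 6 h against 1 h (left), and the difference between the 6 h and the 1 h response to GLP-1 (middle) and BMS-21 (right). Filled points have an edgeR adjusted p under 0.05. Per1 and Cry2 lie farthest left in both response panels, and Nr1d1 and Cry1 lie near 0 there.

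Whether a response differed between the times was tested as the interaction of agent and time with edgeR. For GLP-1 the change of the response was lower for 6 of 10 genes and higher for 0, where 9.09% of all genes were lower and 8.95% higher. The value was -1.54 ± 0.06 for Per1 (edgeR adjusted p = 2.48e-18), -1.17 ± 0.17 for Cry2 (edgeR adjusted p = 0.000357), -0.78 ± 0.14 for Per3, -0.47 ± 0.07 for Nr1d2, -0.46 ± 0.06 for Tef and -0.27 ± 0.08 for Dbp. These 6 were of 2 kinds. Per1 and Cry2 were above Control at both times and less so at 6 h, whereas Per3, Nr1d2, Tef and Dbp were near Control at 1 h and below it at 6 h. The values of Nr1d1 (0.07 ± 0.15, 95% interval -0.21 to 0.36), Cry1 (0.01 ± 0.08) and Bhlhe40 (0.19 ± 0.07, edgeR adjusted p = 0.0575) did not pass. Bhlhe40 did pass without the filter on low counts (edgeR adjusted p = 0.0216), within replicates 1 and 2 (edgeR adjusted p = 0.0452) and within replicates 3 and 4 (edgeR adjusted p = 0.0221), and in 4 of 16 fits that left out a library. Per2, at 0.26 ± 0.11 (edgeR adjusted p = 0.0915), passed with the replicate block (0.26 ± 0.09, edgeR adjusted p = 0.0327), where 26.1% of all genes did.

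For BMS-21 the change was lower for 6 genes and higher for 2, where 10.2% of all genes were lower and 10.9% higher. Per1 (-1.60 ± 0.07), Cry2 (-1.18 ± 0.21), Per3 (-0.72 ± 0.16), Nr1d2 (-0.45 ± 0.07), Tef (-0.42 ± 0.06) and Dbp (-0.23 ± 0.08, edgeR adjusted p = 0.0493) were lower. Per2 was higher (0.35 ± 0.11, edgeR adjusted p = 0.0156), its response rising from 0.04 to 0.39, and so was Bhlhe40 (0.35 ± 0.07, edgeR adjusted p = 0.0012), whose fall was smaller at 6 h. Nr1d1 (0.10 ± 0.17, 95% interval -0.24 to 0.44) and Cry1 (0.07 ± 0.09) did not pass. The Dbp value passed in 5 of 16 fits that left out 1 library, and without Control replicate 2 of 6 h the Per2 value was 0.27 (edgeR adjusted p = 0.0559). The median change of the 10 genes was -0.36 for GLP-1 and -0.32 for BMS-21, against 0.01 over all genes for each.

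In the second list the change of the response was lower for 5 of 12 genes and higher for 3 with GLP-1, where 9.09% of all genes were lower and 8.95% higher. With BMS-21 it was lower for 4 and higher for 3, where 10.2% were lower and 10.9% higher. Arntl (0.53 ± 0.08 and 0.46 ± 0.09), Npas2 (0.79 ± 0.16 and 0.75 ± 0.16) and Rorb (1.41 ± 0.27 and 1.29 ± 0.30) were higher for GLP-1 and BMS-21 respectively. Nfil3 (-0.97 ± 0.10 and -0.98 ± 0.09), Usp2 (-1.25 ± 0.34 and -0.99 ± 0.34), Bhlhe41 (-0.72 ± 0.13 and -0.72 ± 0.12) and Ciart (-0.62 ± 0.15 and -0.56 ± 0.13) were lower, as was Timeless with GLP-1 (-0.22 ± 0.07). Over 16 fits that each left out a library, the Usp2 call with BMS-21 passed in 7 and the Timeless call with GLP-1 in 9.

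Placed in order of their mean levels over the 6 groups, the genes fell into different orders. Per1 was highest with GLP-1 and BMS-21 at 1 h, then in Control at 1 h, GLP-1 and BMS-21 at 6 h and Control at 6 h, and its highest group mean was 5.53 times its lowest. Cry2 followed a like order with a range of 4.4-fold, except that the means of both treated groups at 6 h lay above that of Control at 1 h. Both of these groups overlapped with Control at 1 h, which reached 105.9 RPM. Their lowest libraries stood at 96.0 RPM (GLP-1) and 89.7 RPM (BMS-21). Nr1d1 was highest in Control at 1 h and lowest with GLP-1 at 6 h, 2.75-fold apart, and its Control at 6 h overlapped with both treated groups of 1 h. Dbp and Nr1d2 shared 1 order, with all 3 groups of 1 h above all 3 groups of 6 h and Control highest at each time (2.38-fold and 2.31-fold from highest to lowest mean). For both genes the neighbouring groups of 1 h overlapped, as did the 2 treated groups of 6 h. Per2 had the order of Per1 with a range of 2.47-fold, and both of its treated groups of 1 h overlapped with Control at 1 h. Bhlhe40 was highest in the 2 Control groups, which did not overlap, and the 4 treated groups below them overlapped with their neighbours (1.74-fold). Per3 and Tef were highest in Control at 6 h and lowest with GLP-1 at 6 h (1.75-fold and 1.49-fold). Cry1 was the flattest, with means from 30.1 to 34.4 RPM, a range of 1.14-fold, and every pair of neighbours in its order overlapped.

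Part of the spread within groups followed the replicate number. Nr1d1 was highest in replicate 3 in 6 of 6 groups (mean deviation 0.22 on the log2 scale) and lowest in replicate 1 in 5 of 6 (-0.20). Cry2 was lowest in replicate 3 in 5 of 6 groups (-0.25) and highest in replicate 1 or 2 in all 6. Per1 was lowest in replicate 3 in 4 groups, the 4 treated ones, and Per3 and Tef were lowest in replicate 4 in 5 groups. After group means were removed, Cry2 and Nr1d1 correlated by r = -0.80 over the 24 libraries, Per1 and Nr1d1 by -0.75 and Per1 and Cry2 by 0.73. These correlations describe libraries that share replicate number and scaling, and carry no test.

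**Figure D4:**
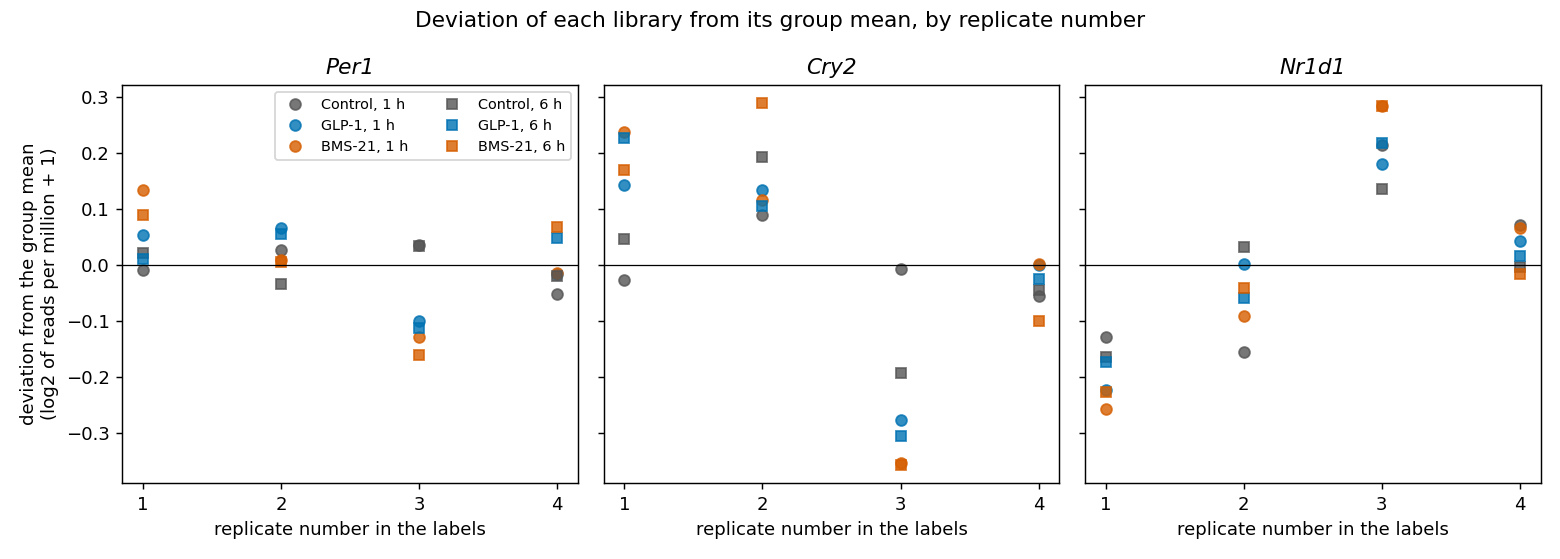
Deviation of each library from its group mean (vertical axis, log2 of RPM plus 1) by replicate number (horizontal axis) for Per1, Cry2 and Nr1d1, with Control grey, GLP-1 blue, BMS-21 orange, 1 h as circles and 6 h as squares. Nr1d1 lies above 0 in replicate 3 in all 6 groups, where Cry2 lies below 0.

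Over all 24 libraries, the genes most like Per1 by Pearson's r of log2 levels, among 9840 genes with a symbol and a mean of at least 50 reads, were Btg2 (0.994), Fosb (0.993) and Nr4a3 (0.993). Those most like Cry2 were Ldhb (0.987), Hbegf (0.984) and Gem (0.982), and those most like Nr1d1 were Klf11 (0.965), Klf5 (0.941) and Klhdc8b (0.916). The 24 libraries fall into 6 groups, so these values mostly compare the pattern of group means.

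Cry1 with GLP-1 at 6 h had an adjusted p of 0.125 in the authors' deposited table. For BMS-21 at 1 h the authors' deposited table gives a log2 change of 1.21 for Cry2 and 1.66 for Per1, smaller than the values fitted here, 1.76 and 1.81. For GLP-1 at 1 h the deposited values were 1.76 for Cry2 and 1.85 for Per1, against 1.78 and 1.85 here. The authors' values came from another tool and may be on another measure, and the cause of the gap was not tested.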

How the data were processed

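The 24 libraries of INS-1 RNA were made with the Illumina TruSeq v2 kit, which does not mark strand, per the labels. The submitters' processing notes name the rat build Rnor_5.0, TopHat2 2.0.12, Bowtie2 2.2.3.0, SAMtools 0.1.19.0, Subread, DESeq and DESeq2 1.6.3, without roles. The authors deposited 6 tables, each for 2 groups of the same time, with 8 libraries and 26404 genes. Their values per library are normalised read counts, a linear signal that the authors set within each table. Beside these stand the authors' own log2 fold changes with their errors, the authors' p-values, raw and adjusted, and the authors' test statistic (a score).

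Values were taken as whole multiples of 1 step per library, which gave back the reads. All of them (100%) met a tolerance of 0.001 times the count. This tolerance grows with the count, so at high counts it is met by any value and the check bears on low counts. Reads recovered from a library's 2 tables were the same for all genes.

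Agents were compared with limma 3.58.1 (trend, robust, R 4.3.3) on log2(normalised count + 1) within the pair's table, where a gene's mean over the 8 libraries reached 10. A fold is therefore on the log2(value + 1) scale. Changes over time, which span tables, were tested on the recovered reads with the quasi-likelihood test of edgeR 4.0.16 after TMM scaling and filterByExpr. All tests were two-sided with Benjamini-Hochberg adjustment over all genes tested and a threshold of 0.05. The SE of an edgeR value is the change divided by the square root of its F. The 95% intervals use a normal multiple of the SE, while the p-values also allow for the small number of libraries. The intervals are therefore too narrow, more so for genes that vary more between libraries. That of Dbp with BMS-21 at 1 h ran from -0.23 to -0.01, although its unadjusted limma p was 0.0519. On simulated data, with 200 changed genes among 12639 to 12712 tested, limma found 74 to 84% of the 1.25-fold changes and 96 to 100% of the 1.5-fold changes. The edgeR test of a changed response recovered 52% (GLP-1, 12951 genes) and 46% (BMS-21, 12937 genes) of those changed 1.25-fold. The simulation gave every gene the same dispersion, held no replicate structure and changed only genes with ample reads. These shares may therefore be too high for genes that vary more between libraries or have few reads, such as Usp2, Rorb and Rora.

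All 10 genes are named in every comparison, and genes of the second list where they passed. Some genes of that list are not reported here. The members, the second list, the markers and the motifs were chosen with earlier results of these data known. After group means were removed, same-numbered libraries of different groups had correlations, across genes, of 0.125 to 0.425 in the 24 pairs of one time, and of 0.204 to 0.31 for Control at both times. Every such pair was above 0.1, but the 72 differently numbered pairs of one time ran from -0.3408 to 0.2423, so the ranges overlapped. Same-numbered libraries tended to deviate together, a link seen in the data and not stated in the labels. How much of it comes from the split of replicates 1 and 2 from 3 and 4 was not tested. Over the 24 pairs of GLP-1 and Control at both times the lowest value was 0.166, and over those of BMS-21 and Control it was 0.0809. Alternatives were pseudocounts of 0.5 and 5, a minimum mean of 50, no filter, scaling by TMM or by library totals, edgeR or DESeq2 1.42.0 on the reads, 1 joint fit of the 24 libraries, the replicate block, replicates 1 and 2 or 3 and 4 only, and leaving out each library. edgeR with the block was chosen after seeing the data.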

Additional observations from a re-analysis of the deposited data

Results flagged for a closer look

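Per2 in Control had 1 library far from the other 3 at each time. Replicate 2 stood at 33.4 RPM at 1 h, where the others were at 39.8 to 41.0 RPM, and at 14.3 RPM at 6 h, where the others were at 18.1 to 18.7 RPM. The gap to the nearest library took up 0.839 and 0.866 of the group's range, above Dixon's 95% critical value for 4 samples. These were 2 of the 60 combinations of gene and group looked at, and chance flags about 1 in 20. Replicate 2 was also the lowest library for Per2 in both BMS-21 groups (38.9 RPM at 1 h and 20.9 RPM at 6 h) and the highest in both GLP-1 groups (44.9 and 24.3 RPM).

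The response to GLP-1 differed between 1 h and 6 h by edgeR's interaction test for 6 of the 10 genes, with log2 differences (6 h minus 1 h) of -1.54 for Per1, -0.78 for Per3, -1.17 for Cry2, -0.47 for Nr1d2, -0.27 for Dbp and -0.46 for Tef. The response to BMS-21 differed for 8, by -1.60 for Per1, 0.35 for Per2, -0.72 for Per3, -1.18 for Cry2, -0.45 for Nr1d2, -0.23 for Dbp, -0.42 for Tef and 0.35 for Bhlhe40. Over all genes tested, the change was lower for 9.09% and higher for 8.95% with GLP-1. With BMS-21 it was lower for 10.2% and higher for 10.9%. Both sets of values use the same Control libraries.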

How the results depend on the processing

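Counts of clock genes past the threshold stayed within 1.5 times their main value in all comparisons and alternatives run, with the exception of BMS-21 against GLP-1 at 6 h, where the replicate block gave 1 in place of 0, and so did edgeR with the block, chosen after seeing the data. At 1 h the block moved the count against Control from 4 to 6 with GLP-1 and from 4 to 5 with BMS-21 (Dbp and Tef). The block also brought Per2 past the threshold in the change of the GLP-1 response and changed no other call of the 10 genes. Leaving out 1 library gave 4 for either agent at 1 h, 9 to 10 for GLP-1 and 8 to 10 for BMS-21 at 6 h, 0 between the agents at either time, 8 to 9 for Control over time, and 6 to 7 and 6 to 8 for the changes of the GLP-1 and BMS-21 responses. Scaling by library totals gave 6 in place of 4 for GLP-1 at 1 h and 7 in place of 10 for BMS-21 at 6 h, and moved the mean of Per1 and Dbp in Control at 6 h to 53.5 and 37.6 RPM. It also shifted the calls over all genes toward lower. For GLP-1 at 1 h these went from 530 higher and 307 lower (12715 tested) to 449 and 506 (12718 tested). For BMS-21 at 6 h they went from 2125 higher and 2128 lower (12640 tested) to 1510 and 3068 (12645 tested). No called change of the 10 genes reversed under any alternative run. Of 1418 gene values under alternatives other than leaving out a library, 1341 kept direction and side of the threshold, 43 lost and 15 gained the call and 19 reversed, none of them called.

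Within replicates 1 and 2 the reversed log2 values were 0.01 for Nr1d2 with either agent at 1 h, 0.02 for Cry2, -0.05 for Nr1d1 and -0.02 for Bhlhe40 between the agents at 1 h, 0.02 for Cry2 between them at 6 h, 0.07 for Cry1 in Control, -0.08 for Cry1 and -0.03 for Nr1d1 in the change of the GLP-1 response and 0.00 for Cry1 in that of BMS-21. Within replicates 3 and 4 they were 0.02 for Per3 with GLP-1 and -0.02 for Per2 and 0.00 for Per3 with BMS-21 at 1 h, 0.04 for Cry1 between the agents at 1 h, and 0.04 for Per2, -0.16 for Per3 and -0.03 for Nr1d2 between them at 6 h. Scaling by totals gave 0.00 for Per3 between the agents at 6 h and -0.01 for Cry1 in the change of the GLP-1 response.

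Leaving out 1 library reversed values that ranged from -0.12 to 0.06 for Per3 with GLP-1 at 1 h, and with BMS-21 at 1 h from -0.03 to 0.07 for Per2, -0.15 to 0.02 for Per3 and -0.04 to 0.01 for Nr1d2. Between the agents at 1 h the ranges were -0.08 to 0.00 for Per1, -0.10 to 0.03 for Per3, -0.05 to 0.02 for Cry1, -0.11 to 0.10 for Cry2, -0.08 to 0.11 for Nr1d1, -0.01 to 0.06 for Dbp and -0.01 to 0.05 for Bhlhe40. At 6 h they were -0.07 to 0.01 for Per2, -0.12 to 0.10 for Per3, -0.15 to 0.08 for Cry2 and -0.05 to 0.13 for Nr1d1. In Control over time Cry1 ranged from -0.06 to 0.02, and in the changes of response Cry1 from -0.03 to 0.05 and Nr1d1 from -0.01 to 0.14 with GLP-1 and from -0.02 to 0.21 with BMS-21. The cause of these shifts was not tested.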
